A study of Mus musculus with 2 samples.

Results

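The calcium/calmodulin-dependent kinases (CaM kinases) are described here through 10 genes: the CaMKII subunits Camk2a, Camk2b, Camk2d and Camk2g, the upstream kinases Camkk1 and Camkk2, the CaMKI genes Camk1, Camk1d and Camk1g, and the nuclear kinase Camk4. The members were taken by name, as every non-control probe on the array that carries 1 of these symbols, and the rule used no measured value. The gene names themselves were chosen with earlier results of these data known. This gave 20 of the 55681 probes on the array, in 29 spots, and all 10 genes among 22146 named genes. A probe counted as measured when a share of 0.5 or more of its spots was called well above background by the scanner software, on each array. That held for 19 of the 20 probes and for all 10 genes, among 27398 probes and 14016 genes measured in all.

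Total RNA came from 2 dissociated cultures of ICR mouse hippocampus, prepared at embryonic day 16.5 and harvested at 12 days in vitro, and each was hybridized to 1 single-colour (Cy3) Agilent array. Both cultures grew in medium with 5.5% serum and received 5 µM Ara-C, an inhibitor of dividing cells given against glia. The control culture is titled as such, and the other culture was kept for 2 days in tetrodotoxin (TTX), which blocks voltage-gated sodium channels and so stops action potentials. The design text gives a TTX dose of 2 µM, the sample's source name gives 2 mM, and how many embryos or dishes were pooled is not stated in the labels. With 1 array per group no difference has a replicate check, no test between the conditions was possible, and precision is limited by that number of arrays. The question that the design sets is which transcripts differ when firing is blocked.

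CaM kinases read calcium entry. Calcium binds calmodulin, and calcium-loaded calmodulin opens the kinases' autoinhibited catalytic domain. CaMKII is a ring of subunits that phosphorylate each other and stay active after calcium falls, and it is the kinase of synaptic potentiation in hippocampal neurons. CaMKI and CaMKIV work in a cascade instead, because each needs phosphorylation by a CaM kinase kinase (Camkk1 or Camkk2) for full activity. CaMKIV carries the signal to the transcription factor CREB in the nucleus, and CaMKI acts mainly in the cytoplasm on neurite and spine growth.

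In the TTX culture 8 of the 10 kinase genes had a lower signal and 2 had a higher one, all by less than 2-fold at the brightest measured probe. All 6 cascade kinases among the members (Camkk1, Camkk2, Camk1, Camk1d, Camk1g and Camk4) were lower. The CaMKII genes were divided, with Camk2a and Camk2d lower and Camk2b and Camk2g higher. Camk4 was furthest from control, 1.80-fold lower at its brightest probe and 2.56-fold lower at its dimmest. The median log2 difference (TTX minus control) was -0.54 over the 10 genes, -0.55 over the 6 cascade kinases and -0.11 over the 4 CaMKII genes, against 0.01 over all measured genes. With the mean over a gene's measured probes in place of the brightest, the CaMKII median was above 0, at 0.03.

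The counts are read against all measured genes. No member gene was at least 2-fold lower or higher, where 3.39% of all genes were 2-fold lower and 2.1% 2-fold higher. At a 1.5-fold rule 2 members (Camk4 and Camk2d) were lower, where 8.62% of all genes were, and none was higher, where 7.65% were. At a smaller size, 0.32 or more on the log2 scale, 7 of 10 members were lower, against 18.8% of all genes, and 2 were higher, against 18.9%. Both higher ones, Camk2b (0.36) and Camk2g (0.33), were close to this size. They fell short of it under some other scalings, to 0.29 and 0.14 at the lowest. On the lower side Camk1 (-0.35) fell short with some (-0.28 at its highest), and Camkk1 (-0.16) reached it with spike-in scaling (-0.33). Below 0 were 8 of 10 members and 48.7% of all genes. Counted by probe, 3 of the 19 measured probes were at least 2-fold lower, against 2.8% of all probes, and 6 were at least 1.5-fold lower, against 8%. These 3 are probes of Camk4 (a pair) and of Camkk2, and none is the brightest probe of its gene. The Camkk2 probe was only just past 2-fold (-1.02). It fell short under some other scalings and background corrections, with -0.77 at the highest.

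Probes of the array are 60 bases long, and 5 of them are shown: that of Camk1 because it is printed in 10 spots, that of Camk1d because it crosses a splice junction, and those of Camk2b, Camk2d and Camkk2 because they are dimmer probes whose values are set beside the brightest probe's below. Each is written 5′ to 3′ as the file gives it, has a forward reading frame without a stop codon, and is placed on mm9. An open frame is common, since 79.3% of all probes on the array have at least 1, and the files do not say whether a probe lies in coding sequence or a UTR.
Camk1, chr6:113286369-113286428, minus strand: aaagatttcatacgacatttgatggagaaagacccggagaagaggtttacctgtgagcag
Camk1d, chr2:5222627-5224363, minus strand: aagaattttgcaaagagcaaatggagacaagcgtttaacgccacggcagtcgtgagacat
Camk2b, chr11:5872636-5872695, minus strand: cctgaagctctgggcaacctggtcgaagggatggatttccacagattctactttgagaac
Camk2d, chr3:126543223-126543282, plus strand: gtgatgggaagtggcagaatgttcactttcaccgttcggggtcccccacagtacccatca
Camkk2, chr5:123187482-123187541, minus strand: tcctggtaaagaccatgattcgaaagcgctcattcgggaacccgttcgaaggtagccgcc
The 60 bases of the Camk1d probe span 1737 bases of genome. No pair of probes from different member genes shared a run of more than 11 bases. The GC content of the 20 probes ran from 30.0% to 55.0%, around a median over all probes of 43.3%. A polyadenylation hexamer (AATAAA or ATTAAA) was present in 4 of the 20 and in 13.7% of all probes.

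**Figure D1:**
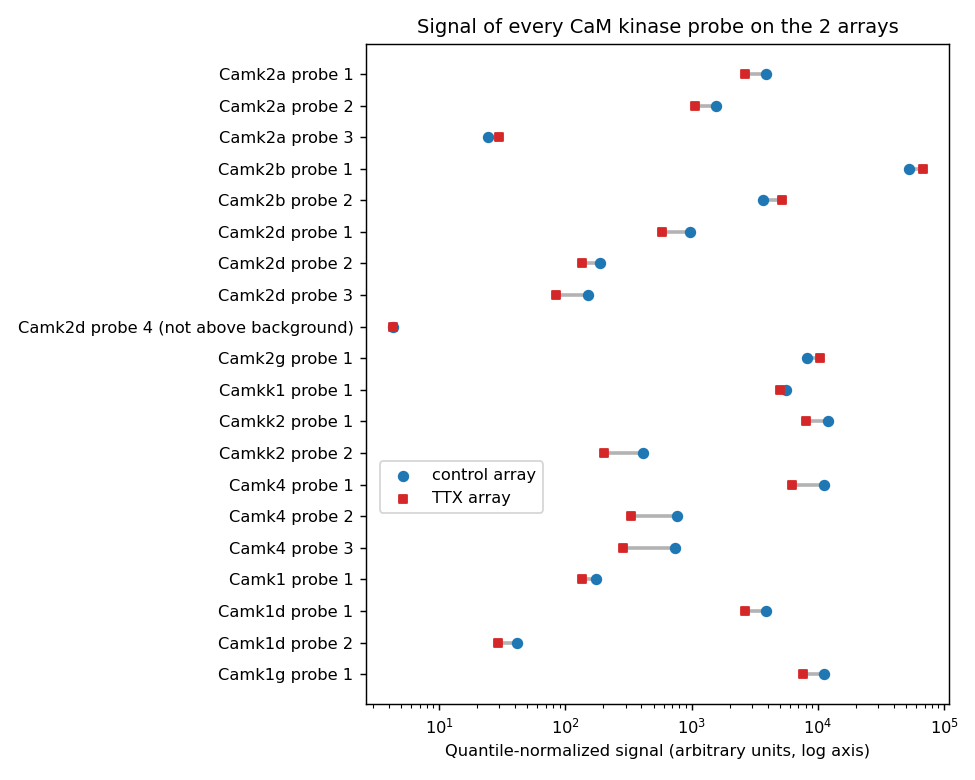
Quantile-normalized signal (log axis) of each of the 20 CaM kinase probes on the control array (circles) and the TTX array (squares), with the probes of a gene numbered from the brightest. Camk4 has the widest gaps, the squares of Camk2b and Camk2g lie to the right of their circles, and Camk2d probe 4 is not above background on either array.

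Signals below are quantile normalized and in arbitrary units. A probe's signal depends on its own sequence, so levels are compared between the arrays and not between genes. The error given with a difference is the spot SD, the pooled SD of single-spot log2 differences among 261 probes printed 10 times, taken within the same quintile of the signal range. It was 0.30 in the lowest quintile and 0.06 in the highest. It measures noise within these 2 arrays and holds nothing of the spread between cultures. The scanner software also gives an error for each spot. Combined over the 2 arrays, that error was larger than the spot SD at bright probes, for example 0.20 log2 at Camkk1 and at the brightest Camk2b probe.

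Camk2a encodes the alpha subunit of CaMKII, a major protein of the postsynaptic density of excitatory neurons. Its brightest probe read 3854 in control and 2648 in TTX, a log2 difference of -0.54 ± 0.06 (spot SD). The next probe read 1560 and 1057 (-0.56 ± 0.08). These 2 probes lie furthest 3′ among the gene's probes on chromosome 18 and gave nearly the same value. The third probe, which is matched only to an Ensembl transcript and a transcript cluster, starts 44748 bases away from the most distant of the others and read 24.4 in control and 29.7 in TTX (0.29 ± 0.30). That signal is close to background, and its difference is smaller than the spot SD at that level. The range over the 3 probes, 0.85, was at the 95th percentile (0.85) of 4124 genes with at least 2 measured probes.

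Camk2b encodes the beta subunit, which ties the holoenzyme to actin filaments in spines. Its brightest probe read 52588 in control and 67702 in TTX (0.36 ± 0.06). The probe printed above read 3692 and 5201 (0.49 ± 0.06). Both were higher in TTX, by 1.29-fold and 1.41-fold, and they lie 2961 bases apart. The log2 differences of Camk2b and Camk2a at their brightest probes were 0.91 apart on these 2 arrays. With the mean over probes in place of the brightest, this gap was 0.70.

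Camk2d and Camk2g encode the delta and gamma subunits, which are also found in tissues outside the brain. Camk2d read 966 in control and 582 in TTX at its brightest probe (-0.73 ± 0.08). The probe printed above read 188 and 134 (-0.49 ± 0.17), and another read 152 and 84.4 (-0.85 ± 0.17). All 3 were lower, and they lie within 4462 bases. The fourth Camk2d probe, designed on a cDNA clone, had signals of 4.28 and 4.33 and was not well above background on either array. Camk2g has a single probe (chr14:21554122-21554181, mm9), which read 8272 in control and 10382 in TTX, 1.26-fold higher (0.33 ± 0.06). Its size depended on the scaling, as given below.

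Among the upstream kinases, Camkk2, which activates CaMKI, CaMKIV and the energy sensor AMPK, was lower at both probes. The brightest read 12124 in control and 8113 in TTX (-0.58 ± 0.06). The probe printed above, 4209 bases away, read 411 and 203 (-1.02 ± 0.10) and just passed 2-fold. Under some other scalings and background corrections that probe fell short of 2-fold, with -0.77 at the highest. The 2 probes therefore share a direction and differ in size by 0.44, where the median range over probes of a gene was 0.20. Camkk1, the other kinase kinase, read 5578 and 4983 at its single probe (chr11:72855457-72855516, mm9). Its difference of -0.16 ± 0.06 was the smallest of the 10 genes, and 30.7% of all genes lay lower. That difference was also smaller than the scanner software's error of 0.20 at this probe.

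**Figure D2:**
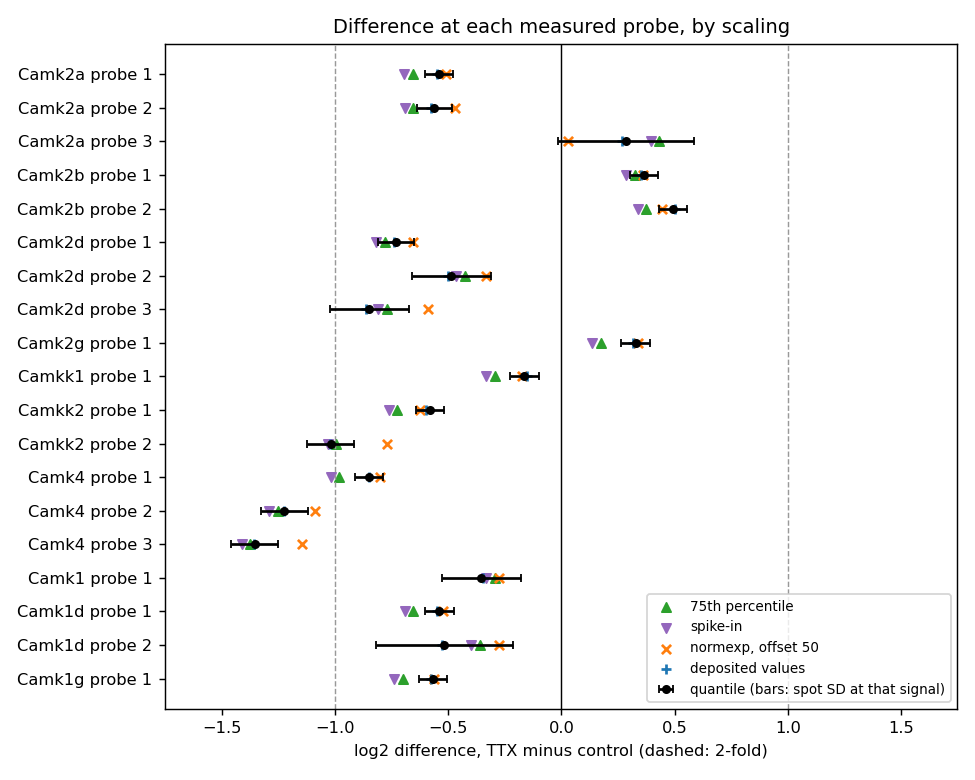
Log2 difference (TTX minus control) at the 19 measured probes with quantile normalization (black, bars show the spot SD at that signal) and with 4 other treatments of the signals. Every probe keeps its side of 0 in all of them, and 75th percentile and spike-in scaling place the bright probes lower, so that Camk2g falls to 0.14 with spike-ins and Camk4 probe 1 reaches -1.02.

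The CaMKI members Camk1, Camk1d and Camk1g gave lower signals at each of their probes. Pnck, a further CaMKI that is not a member, was higher in TTX (0.46). Camk1, the ubiquitous CaMKI alpha, is printed in 10 spots over the array. In control these read from 155 to 189, with a median of 175, and in TTX the 9 spots without an outlier mark read from 124 to 149, with a median of 135. The 2 ranges did not overlap, and how many other probes printed 10 times separate in the same way was not counted. The log2 difference was -0.35 ± 0.12 (SD over 9 spots, which are technical repeats on the same 2 arrays) and was below 0 at 9 of 9 spots, from -0.50 to -0.10. The spots lie in rows 15 to 382 of the array, and the difference was present from the first of these rows to the last.

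**Figure D3:**
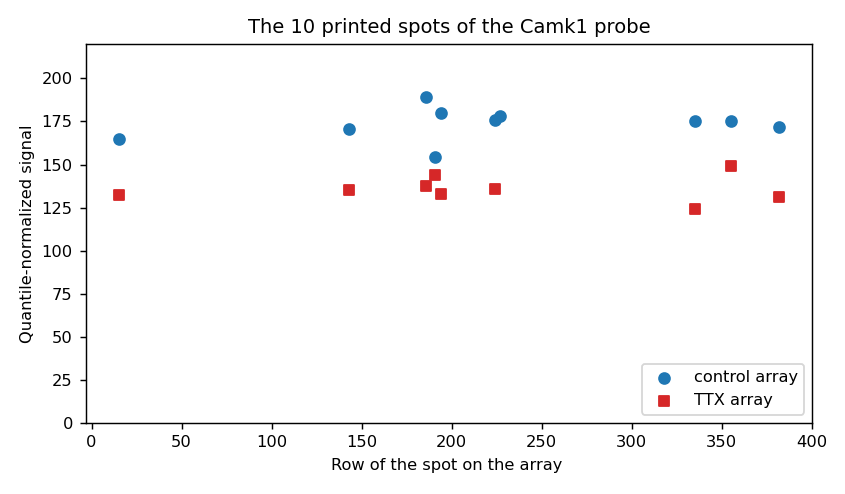
Quantile-normalized signal of the Camk1 probe at its 10 spots, by row on the array, for the control array (circles, 10 spots) and the TTX array (squares, 9 spots, 1 left out as an outlier). All squares lie below all circles, from 124 to 149 against 155 to 189.

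Camk1d, CaMKI delta, read 3852 in control and 2652 in TTX at its bright probe (chr2:5214566-5214625, mm9; -0.54 ± 0.06). The splice-spanning probe printed above read 41.5 and 29.0 (-0.52 ± 0.30). The values at these probes, 8061 bases apart, differed by 0.02 with quantile normalization. With spike-in scaling they were -0.69 at the bright probe and -0.40 at the dim one, and with normexp background correction -0.52 and -0.28. Camk1g, CaMKI gamma, a membrane-anchored form known from dendrite growth, read 11217 and 7577 at its single probe (chr1:195172549-195172608, mm9), 1.48-fold lower (-0.57 ± 0.06).

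Camk4 was lower at all 3 probes. The brightest, furthest 3′ of the 3, read 11184 in control and 6206 in TTX (-0.85 ± 0.06). The next read 769 and 329 (-1.22 ± 0.10). The third, furthest 5′ and 256231 bases away from the first, read 736 and 288 (-1.35 ± 0.10). Probes at both ends of this stretch were thus lower, the 2 dimmer ones by more than 2-fold. Of all genes, 4.68% lay below the brightest probe's value. With the mean over probes Camk4 stood at -1.14 and passed 2-fold.

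The scaling bears on these sizes because most members are bright. Of the 10 genes, 8 lay in the brightest quintile of measured probes' signals, a range that holds 3654 genes. The median of those genes was 0.00 with quantile normalization, -0.12 with 75th percentile scaling and -0.16 with scaling on 7 spike-in probes. Against this shift, the median of the 8 bright members was -0.54, -0.65 and -0.69. With quantile normalization 1 of the 8 was at least 1.5-fold lower, against 5.77% of bright genes, and with spike-ins 5 of 8 were, against 10.2%. All 10 genes kept their direction in each of the 5 other scalings and background corrections, including the authors' deposited values, and all 6 cascade kinases stayed below 0. These 5 are not separate checks. Differences with 75th percentile scaling, no normalization and spike-in scaling are the same values shifted by a constant. The deposited values are nearly those used here (correlation of differences 0.9999). Camk2b ranged from 0.29 to 0.36 over them and Camk2g from 0.14 to 0.34.

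Genes that act with the CaM kinases did not share a direction. Calm2 and Calm3, which encode calmodulin, differed by -0.13 and 0.11 at their brightest probes. The other Calm2 probe was at -0.39, and Calm3 fell below 0 in 1 of the other scalings. Of the 7 genes for calmodulin and its small binding proteins, all were measured, 4 were below 0, none passed 2-fold and the median was -0.13. The lowest was Pcp4, a small protein that speeds calcium exchange on calmodulin, with signals of 43256 in control and 22881 in TTX (-0.92). Its relative Pcp4l1 read 12099 and 6623 (-0.87). Nrgn, neurogranin, which holds calmodulin at low calcium, was the highest (19508 and 25369, 0.38).

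The 7 inhibitors and phosphatases were all measured, with a median of 0.13, which fell to -0.02 under 1 scaling, and none passed 2-fold. The CaMKII inhibitor proteins Camk2n1 (0.07) and Camk2n2 (0.13) were close to level, and both fell below 0 with at least 1 other scaling. Ppm1e, a phosphatase that removes the activating phosphate of CaM kinases, was the lowest of them (14802 in control and 10232 in TTX, -0.53). Ppp1r1b, which encodes the protein phosphatase inhibitor DARPP-32, was the highest (2159 and 3230, 0.58).

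Of 15 related kinases 12 were measured, with a median of 0.10, and 2 were at least 2-fold higher. The doublecortin-like kinase Dclk3 read 73.9 in control and 396 in TTX (2.42, 1 probe, and 1.74 at the lowest over the other scalings and background corrections), and the death-associated kinase Dapk1 read 1466 and 3160 (1.11, 1 probe). Dapk1 fell just below 2-fold with some scalings (0.96). The lowest was the myosin light chain kinase Mylk, with signals of 83.8 and 48.5 (-0.79), although its other probe was at 0.36. Of the nearest relatives of the members, Pnck, a further CaMKI, was at 0.46 and the kinase-like Camkv at 0.06. Stk33 had 1 probe above background on the control array only, and its signal there was 2.68-fold lower in TTX. That is the ratio of the probe's own signals and not a lower bound, because the TTX signal was not well above background. The other Stk33 probe was above background on neither array.

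Among 27 substrates and partners 24 were measured, with a median of -0.07 and 14 below 0. Nos1, the neuronal nitric oxide synthase that CaMKII phosphorylates, was highest, with 53.5 in control and 240 in TTX (2.17, and 2.50 at its other probe). Over the other scalings and background corrections its lowest value was 1.46. The histone deacetylase Hdac4, which CaM kinases drive out of the nucleus, read 1149 and 4176 (1.86). Kalrn, a Rac activator of spines phosphorylated by CaMKII, was lowest at its brightest probe (8995 and 3843, -1.23), but its 7 measured probes ran from -1.23 to 1.16. These were the 3 measured genes of the list past 2-fold, 1 lower and 2 higher. Rem2, a small GTPase of the RGK family, was above background on the control array only, with signals of 472 in control and 8.89 in TTX. It was at least 24-fold lower, by the bound against the dimmest signal called above background on the TTX array (19.7).

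**Figure D4:**
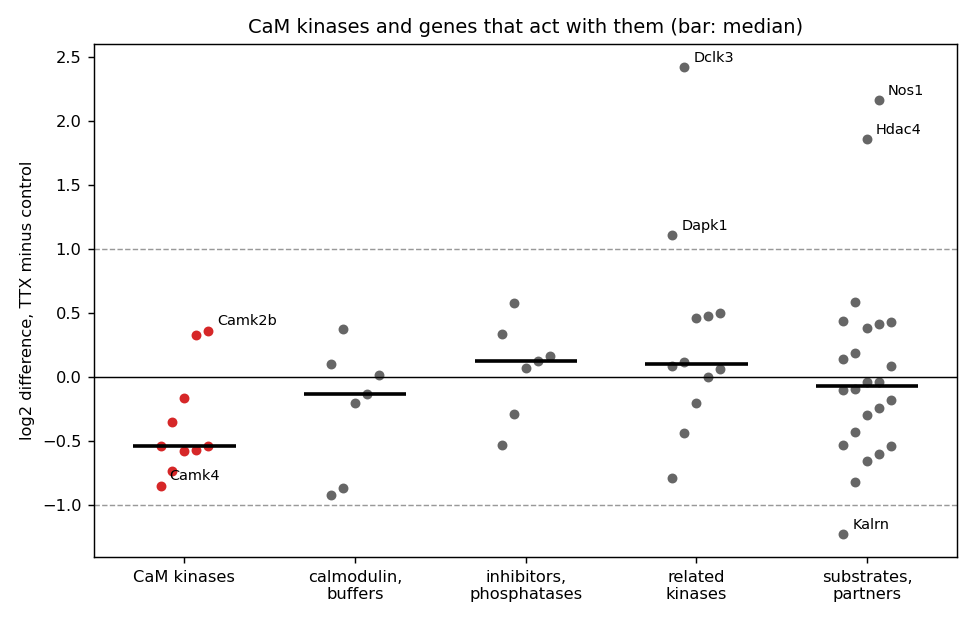
Log2 difference (TTX minus control) of each measured gene at its brightest probe, for the 10 CaM kinases and 4 lists of genes that act with them, with the bar at the median and dashed lines at 2-fold. The CaM kinase median is -0.54, and the other medians lie between -0.13 and 0.13.

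The CaM kinases differ between cell types, so the markers of cells in the cultures are given beside them, and in bulk RNA fewer cells of a type and less RNA per cell cannot be told apart. All 6 general neuron markers were measured, with a median of -0.10, 3 below 0 and 3 above, and a summed signal of 131315 in control and 118680 in TTX. The 3 inhibitory neuron markers were all below 0 (median -0.33, summed signal 45330 and 35177). The 5 excitatory markers had a median of 0.74 and a summed signal of 21742 and 18903, and they were divided: Neurod6 (-1.10) and Slc17a7 (-0.22) were below 0, and Prox1 (1.02), Tbr1 (0.97) and Slc17a6 (0.74) above. Of 8 astrocyte markers 7 were measured, with a median of 0.40 and a summed signal of 13283 and 18242. Below 0 were 2 of these 7, the glutamate transporter Slc1a2 (-1.05, with 3 probes from -1.29 to -1.05) and Aldh1l1 (-0.14). The microglia markers (5 of 6 measured) had a median of 0.37, with 2 below 0 and 3 above, and a summed signal of 989 in control and 946 in TTX. The oligodendrocyte lineage (5 of 7) had a median of 0.02 and sums of 1557 and 1781. Endothelial markers (2 of 4) had a median of -0.16 and sums of 106 and 95.5, and fibroblast markers (4 of 5) 0.20 and sums of 777 and 943. Cldn5 and Cdh5, which define endothelium, were not above background. The part of any change in cell makeup in the kinase values was not tested.

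Promoter windows were searched for the CREB motif because CaMKIV acts on CREB. RefSeq windows of GRCm38.p6 were found for 7 of the 10 genes, in 8 windows of 250 bases before the start site. None was found for Camk2a, Camk2g or Camk4. The full element TGACGTCA was in 0 of the 8 windows and in 1.55% of 32851 windows of all genes. Its core TGACG, read on both strands and contained in the full element, was in 2 of the 8 and in 17.8% of all. The 2 windows were those of Camk1 and Camkk1, shown with the core in capitals.
Camk1, chr6:113344091-113344119, minus strand, 185 bases before the start: cttgtctcctgcTGACGaccaaagggcac
Camkk1, chr11:73018810-73018838, plus strand, 166 bases before the start: gcgccgggggcgTGACGcgtcggggccca
Among the cascade kinases with a window, these have the smallest differences, and a link between the core and the difference was not tested. Camk4, the cascade kinase with the largest difference, was not searched. The match of letters is a description and not a site.

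The windows of Camk1g, which was lower in TTX, and Camk2b, which was higher, are shown as the extremes of GC content among the 8, at 44.8% and 78.4%, where all windows had a median of 52.4%. Capitals mark the GC box GGGCGG, read on both strands, which is in 6 of the 8 windows (5 of 7 genes) and in 32.7% of all. These shares are not matched for GC content, and most of the 8 windows lie above the median of all windows.
Camk1g, chr1:193370283-193370532, minus strand: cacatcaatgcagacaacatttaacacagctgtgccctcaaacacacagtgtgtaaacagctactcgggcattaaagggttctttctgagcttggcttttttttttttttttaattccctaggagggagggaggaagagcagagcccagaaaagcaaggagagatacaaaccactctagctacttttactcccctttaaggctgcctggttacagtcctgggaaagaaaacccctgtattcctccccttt
Camk2b, chr11:6065749-6065998, minus strand: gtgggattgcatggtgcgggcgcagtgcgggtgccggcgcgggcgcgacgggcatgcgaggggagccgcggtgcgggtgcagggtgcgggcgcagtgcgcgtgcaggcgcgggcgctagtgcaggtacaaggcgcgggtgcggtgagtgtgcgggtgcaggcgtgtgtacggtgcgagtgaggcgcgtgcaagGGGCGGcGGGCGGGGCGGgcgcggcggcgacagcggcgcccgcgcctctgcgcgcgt
The GC box was absent from the Camk1g and Camk1 windows and present in those of Camk2b, Camk2d, Camkk1, Camkk2 and Camk1d. Of this group Camk2b was higher in TTX and the others were lower, and Camk2g, also higher, had no window.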

How the data were processed

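The authors deposited 1 Agilent Feature Extraction file per array (9.5.1.1 per the submitters' processing notes, 10.7.1.1 per the file headers), with background-subtracted spot intensity on a linear scale. The deposited value table holds intensity too, with a median of 24.9 in both columns, and the design text names quantile normalization. Its scale is linear, its columns are not centred, and its probe differences had a correlation of 0.9999 with those used here (27398 probes). No deposited value is on a log2 scale.

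Non-control spots (59305 per array) without outlier marks were quantile normalized, put on a log2 scale and averaged per probe, and a gene took its brightest measured probe. Spots well above background were 54.2% of these on control and 52.2% on TTX. Symbols came from the files and the RefSeq table of GRCm38.p6 (30848 of 55681 probes matched, 20 of 20 member probes). Probe coordinates are mm9. Differences were described by fold rules with no test. Normexp used limma 3.58.1 in R 4.3.3, with an offset of 50. The steps were tested on simulated data: for TTX against control, run on 14737 genes, a log2 difference of -0.7 was recovered as -0.70 over 50 genes and 0.7 as 0.68. Both simulated arrays were copies of the control array with random noise and no shift in scale between them. The run therefore checks the computing steps and cannot bear on the choice of scaling.

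The members and lists were chosen with earlier results of these data known. Named were all members with every probe, and of each of the 4 pathway lists the measured genes past 2-fold and the highest and lowest. Pcp4l1, Calm2, Calm3, the CaMKII inhibitors, Pnck, Camkv, Stk33, Rem2 and the named markers were added after their values were seen. A list gene is not reported here by name.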

Additional observations from a re-analysis of the deposited data

How the results depend on the processing

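No paired analysis was possible because each group has 1 array and the result comes from no test. Every member gene kept its direction in all alternatives run, except Camk2a when its dimmest probe was used alone (0.29). Counts are given as lower, then higher where that moved too. The member genes past the fold rule were 0 lower with quantile normalization and 1 with spike-in scaling, the mean over probes or the median over probes, then 2 at 1.5-fold, and 7 lower and 2 higher at the smallest rule, a log2 difference of 0.32. Spike-in scaling moved the medians to -0.69 (members), -0.28 (CaMKII) and -0.71 (cascade kinases). The mean over probes moved the gap between Camk2b and Camk2a to 0.70 and the CaMKII median to 0.03. Calmodulin and buffers had 1 gene lower with 75th percentile scaling or no normalization, 2 with spike-ins, 2 at 1.5-fold, and 2 lower and 1 higher at 0.32 log2. Inhibitors and phosphatases had 1 lower and 2 higher at 0.32 log2. Related kinases had 3 lower with no filter on dim probes, 1 at 1.5-fold, 2 lower and 5 higher at 0.32 log2, and 1 higher with 75th percentile scaling, no normalization or spike-ins. Substrates and partners had 2 lower with no filter, 0 with the mean or median over probes, 4 at 1.5-fold, and 7 lower and 7 higher at 0.32 log2. All genes past the rule (475 lower and 295 higher) became 301 and 147 with normexp, 1374 and 1072 with no filter, 1208 and 1072 at 1.5-fold, and 2642 and 2647 at 0.32 log2. Fold rules and filters change these counts by construction, and for the other settings the cause was not tested. Using each other probe of a gene alone, and counting any difference from 0, were alternatives chosen after seeing the data. Signal over background limits the dim probes of Camk2a and Camk1d, where the spot SD is 0.30.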

Other observations

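Some paired partners of the CaM kinases, picked after their values were seen, stood on opposite sides of 0. Hdac5, the close relative of Hdac4 that CaM kinases also phosphorylate, read 17421 in control and 11034 in TTX (-0.66), while Hdac4 was higher. Prkaa1 and Prkaa2 encode the alternative catalytic subunits of AMPK, a target of Camkk2: Prkaa1 read 935 and 1217 (0.38) and Prkaa2 read 1054 and 695 (-0.60). All 4 kept their direction under the other scalings. Lrrc7, the densin that binds CaMKII at the postsynaptic density, read 221 and 152 (-0.54), and Grin2b, its NMDA receptor anchor, read 2751 and 3729 (0.44).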
